A study of Mus musculus with 6 samples.

Results

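The mitochondrially encoded transcripts are the genes that the deposited expression table places on the MT chromosome. Of the 54532 genes in the table, 37 met this rule: 13 coding genes, 2 rRNA genes and 22 tRNA genes. The study sequenced poly(A)-selected RNA from the testes of 5-day-old mice (5 dpp, days postpartum), with 3 control (Ctrl) and 3 conditional knockout (cKO) samples. In cKO mice, floxed *Srsf1*, which encodes a serine/arginine-rich splicing factor, was deleted by *Vasa*-Cre, a Cre recombinase driven by a germ cell promoter. The labels name the groups only as Ctrl and as cKO of *Srsf1*, and the exact genotype of the Ctrl animals, their strain and any pooling of animals were not given in the sources used here. The paper gives the cKO genotype as *Vasa*-Cre *Srsf1* Fl/del, that is, with a floxed and a deleted allele. The comparison asks which transcripts differ in whole testes when *Srsf1* is lost from germ cells. Somatic cells of cKO testes may also carry the deleted allele, so a difference between groups need not start in germ cells.

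The mouse mitochondrial genome is a small circle that encodes subunits of the respiratory chain and the rRNAs and tRNAs that translate them. Both of its strands are transcribed as long precursors, and the tRNAs that lie between the other genes are cut out to release the individual RNAs. Most mitochondrial mRNAs and the rRNAs carry short poly(A) tails, so they enter poly(A)-selected libraries, whereas mature tRNAs carry a CCA end. Copies of mitochondrial DNA also lie in the nuclear chromosomes, where they are annotated as pseudogenes.

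A tract of such copies on chromosome 1 bears on these data, because part of the mitochondrial sequence stands there base for base. In GRCm38 coordinates, 7 annotated pseudogenes lay between chr1:24611535 and chr1:24616197 on the minus strand, in the order of MT positions 6381 to 11042, a stretch of 4662 bases. In 5 of the 7, no base differed from the mitochondrial gene over the aligned length, and *mt-Nd3* differed from its copy *Gm28438* by the single substitution T3C, counted from the first base of *mt-Nd3*. The first 90 bases of both are shown, with the differing base in capitals, and are followed by the 294 bases that *mt-Nd4l* and its copy *Gm10222* have in common, which show that a read from inside this run carries no base that would place it. The sequences are those of GENCODE mouse release 21 transcripts, 5′ to 3′.
mt-Nd3: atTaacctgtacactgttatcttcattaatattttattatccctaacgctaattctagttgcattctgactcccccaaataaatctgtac
Gm28438: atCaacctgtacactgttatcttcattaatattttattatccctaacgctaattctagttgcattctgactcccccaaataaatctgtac
mt-Nd4l and Gm10222: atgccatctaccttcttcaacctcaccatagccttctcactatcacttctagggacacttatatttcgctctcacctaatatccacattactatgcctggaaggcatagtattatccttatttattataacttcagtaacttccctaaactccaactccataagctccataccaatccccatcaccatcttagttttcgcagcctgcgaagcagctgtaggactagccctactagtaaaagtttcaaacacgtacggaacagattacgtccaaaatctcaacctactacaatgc

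The tRNA sequences shown next are those of the genes whose values are discussed most, with the anticodon in capitals. *mt-Tl1* (leucine, MT 2676 to 2750, plus strand) and *mt-Te* (glutamate, MT 14071 to 14139, minus strand) had the lowest p-values of the members in the comparison of cKO with Ctrl. *mt-Tn* (asparagine, MT 5089 to 5159), *mt-Tc* (cysteine, MT 5192 to 5257) and *mt-Tp* (proline, MT 15356 to 15422), all on the minus strand, had the most reads. Each of the 5 is shorter than the 150-base reads.
mt-Tl1: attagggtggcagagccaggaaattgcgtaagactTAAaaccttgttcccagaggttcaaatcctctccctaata
mt-Te: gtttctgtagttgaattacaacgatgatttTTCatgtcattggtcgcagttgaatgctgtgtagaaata
mt-Tn: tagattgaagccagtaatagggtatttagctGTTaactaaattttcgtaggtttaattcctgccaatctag
mt-Tc: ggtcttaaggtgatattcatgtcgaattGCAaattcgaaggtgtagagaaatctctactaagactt
mt-Tp: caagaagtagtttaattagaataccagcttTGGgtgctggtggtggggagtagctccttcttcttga

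Levels are given as FPKM, which the authors scaled to gene length and library size, and as reads recovered from the FPKM. The samples held between 15448191 and 18964743 recovered reads. *Srsf1* stood at 82.1, 89.1 and 88.4 FPKM in Ctrl 1 to 3 and at 45.1, 46.3 and 51.6 FPKM in cKO 1 to 3, so no cKO sample reached the Ctrl range (log2 fold change −0.85 ± 0.087 SE, limma adjusted p = 0.058). Of 20 germ cell markers, 19 were tested and the groups did not overlap in 17, all lower in cKO. Among all genes, 12.8% were lower and 10.3% higher without overlap. With limma on log2 values, 0 of the markers passed the adjusted threshold. With limma voom on the recovered reads, *Dnd1* (adjusted p = 0.030), *Dazl* (0.039), *Zbtb16* (0.039) and *Mael* (0.039) passed it. The paper used a different test, DESeq2 on counts, and reported genes changed in both directions. Among its significantly lower genes were *Gfra1*, *Pou5f1*, *Zbtb16* (as *Plzf*), *Dnd1*, *Stra8* and *Taf4b*, so the number of calls depends on the test. The summed FPKM of this list was 192, 488 and 208 in Ctrl 1 to 3 and 51.3, 95.2 and 63.4 in cKO 1 to 3, which set Ctrl 2 far above the other samples. In RNA from whole testes, fewer germ cells and less RNA per germ cell cannot be told apart. The paper stained testes of this and later ages for the germ cell protein VASA. It reported a significant fall in germ cells per tubule at the later ages, and its text names no such fall at the sequenced age. Retina markers were included because the extraction text in the labels speaks of retinas, and 0 of 10 reached a mean of 0.5 FPKM, whereas 19 of 20 germ cell, 15 of 15 Sertoli cell and 9 of 10 Leydig cell markers did. The study's methods call the samples biological replicates, and whether each came from a separate animal was not given in the sources used here, so p-values measure the spread between these samples.

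Of all recovered reads, the 37 genes took 2.80%, 3.35% and 2.88% in Ctrl 1 to 3 and 2.78%, 2.72% and 2.30% in cKO 1 to 3. Every cKO sample lay below every Ctrl sample, but cKO 1 and Ctrl 1 almost met. The means were 3.01% ± 0.295 and 2.60% ± 0.261 (SD, n = 3 each, exact two-sided permutation p = 0.1, the smallest that 3 against 3 samples can give). The difference of −0.41 percentage points shrank to −0.24 without Ctrl 2 and to −0.26 without cKO 3. Counting error was small beside this, with a 95% Wilson interval of at most ±0.0082 percentage points in any sample. Ctrl 2 held both the highest mitochondrial share and the highest summed germ cell markers, and the part of the germ cell markers in the difference was not tested.

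The coding genes and the rRNA genes did not move together. Coding genes supplied most of the mitochondrial reads, with 2.74%, 3.27% and 2.81% of all reads in Ctrl 1 to 3 and 2.71%, 2.63% and 2.22% in cKO 1 to 3 (means 2.94% ± 0.289 and 2.52% ± 0.262, SD, exact p = 0.1), again without overlap. The difference of −0.42 percentage points became −0.26 without Ctrl 2 and −0.27 without cKO 3. The rRNA genes took 0.0559%, 0.0669% and 0.0618% in Ctrl and 0.0628%, 0.0878% and 0.0746% in cKO (exact p = 0.2), so the groups overlapped and the cKO mean was the higher. The tRNA genes took 0.0086% ± 0.000751 in Ctrl and 0.00814% ± 0.000805 in cKO (SD, n = 3 each, exact p = 0.5), with overlapping samples.

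Expressed within the mitochondrial chromosome, which is unaffected by scaling between libraries, there were 2.04, 2.04 and 2.20 rRNA reads per 100 coding reads in Ctrl 1 to 3 and 2.32, 3.34 and 3.36 in cKO 1 to 3. All cKO samples were above all Ctrl samples, and cKO 1 lay nearer to the Ctrl samples than to cKO 2 and cKO 3. The mean log2 ratio was 0.50 higher in cKO (exact p = 0.1). It was 0.55 higher when the coding reads were restricted to *mt-Nd1*, *mt-Nd2*, *mt-Nd5*, *mt-Nd6* and *mt-Cytb*, which share little or no sequence with annotated nuclear transcripts (exact p = 0.1). The libraries were selected for poly(A), so these reads need not stand for total rRNA. Tailed rRNA and any untailed rRNA that passed the selection cannot be told apart. The summed FPKM of red cell markers ranged from 438 to 697 in Ctrl and from 526 to 1480 in cKO, and that of Leydig cell markers from 517 to 718 and from 794 to 900. That of peritubular myoid cell markers ranged from 858 to 866 in Ctrl and from 596 to 844 in cKO. The myoid sum was lower in all cKO samples, as were the germ cell sum given above and the coding share. The myoid genes did not all move alike: of 6, 3 were lower and 1 (*Des*) higher without overlap, and 2 overlapped. The Leydig cell sum was higher in all cKO samples. Of its 9 tested genes, 4 were higher without overlap and 5 overlapped, and all 5 tested red cell genes overlapped. Among all genes, 12.8% were lower and 10.3% higher without overlap. The part of these lists in the ratio and in the coding share was not tested.

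**Figure D1:**
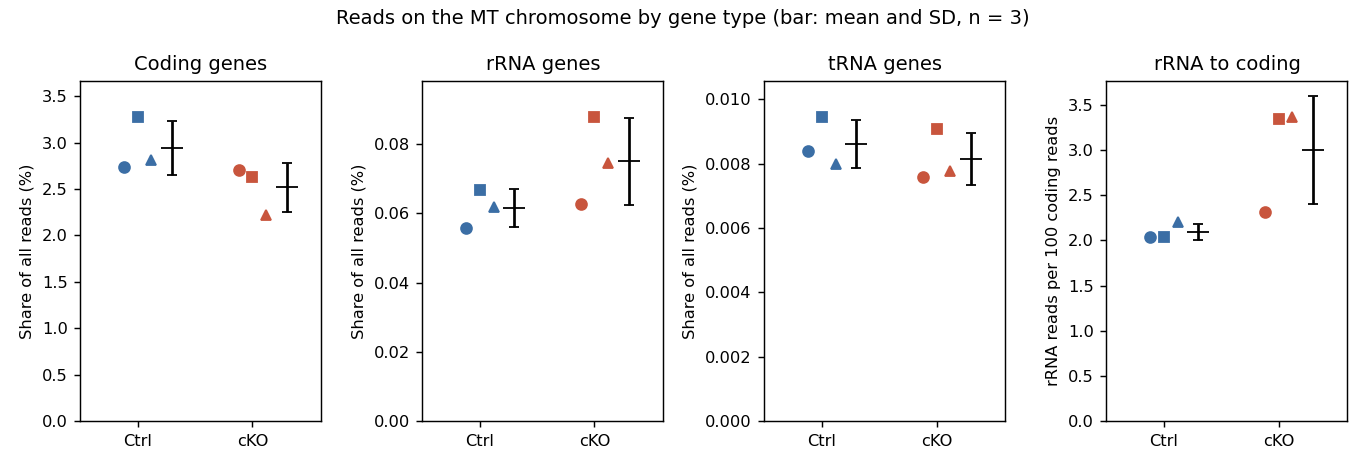
Share of all recovered reads (%, y axis from 0) on mitochondrial coding, rRNA and tRNA genes, and rRNA reads per 100 coding reads, in 3 Ctrl (blue) and 3 cKO (red) samples; circles, squares and triangles are replicates 1, 2 and 3, and black bars are the mean and SD. Coding shares were lower and rRNA-to-coding ratios higher in all cKO samples, while rRNA and tRNA shares overlapped.

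Gene by gene, 28 of the 37 members reached a mean of 0.5 FPKM over the 6 samples and were tested. The other 9 are tRNA genes with at most 3 reads in any sample. With limma on log2(FPKM + 1) and Benjamini-Hochberg adjustment over 16206 genes, 0 of the 28 passed an adjusted p of 0.05, as did 0% of all genes. At an unadjusted p under 0.05, 6 members were lower (*mt-Nd2*, *mt-Cytb*, *mt-Tl1*, *mt-Tw*, *mt-Ta*, *mt-Te*) and 0 higher, against 9.31% lower and 6.6% higher among all genes. The groups did not overlap in 7 members, all lower in cKO (*mt-Nd1*, *mt-Nd2*, *mt-Nd4*, *mt-Cytb*, *mt-Tl1*, *mt-Ta*, *mt-Te*), against 12.8% lower and 10.3% higher among all genes. Limma voom on the recovered reads called 0 of the 28 and 0.512% of all genes. At an unadjusted p under 0.05, voom had 6 members lower and 1 (*mt-Rnr2*) higher, against 9.9% lower and 7.1% higher among all genes. These members come from shared precursors and are not independent of each other. Without Ctrl 2, the members lower at an unadjusted p under 0.05 numbered 3 and the higher ones 0, against 6.69% and 4.59% of all genes. The direction was less one-sided without cKO 1, with 4 members lower and 3 higher at that level, against 6.22% and 4.6% of all genes. Without Ctrl 2, the groups did not overlap in 7 lower and 3 higher members, against 15.9% and 13.5% of all genes.

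**Figure D2:**
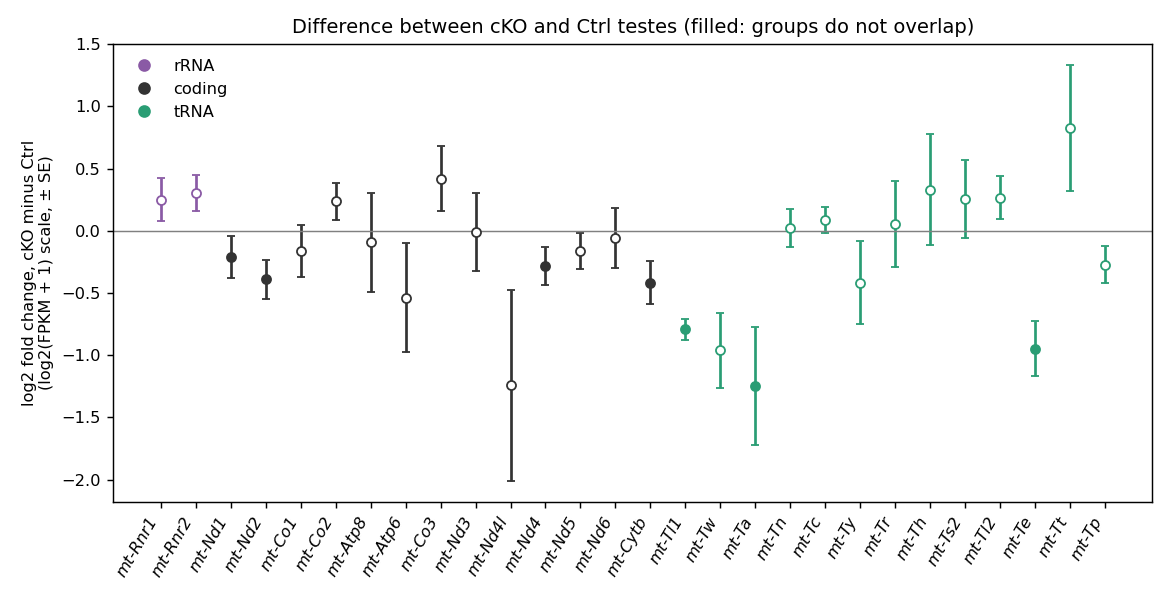
Log2 fold change (cKO minus Ctrl, log2(FPKM + 1) scale, y axis) with its limma standard error for the 28 tested members, rRNA genes in purple, coding genes in black and tRNA genes in green; filled points mark the 7 genes in which the groups do not overlap. Both rRNA genes lie above 0 (0.25 and 0.30), 11 of 13 coding genes lie below 0, and the tRNA genes spread from −1.25 to 0.83.

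Among the subunits of complex I, the NADH dehydrogenase that feeds electrons into the chain, the abundant genes stood lower in cKO by small amounts. *mt-Nd1* (MT 2751 to 3707) was at 4360, 5172 and 4305 FPKM in Ctrl 1 to 3 and at 4102, 4093 and 3752 FPKM in cKO 1 to 3. The samples did not overlap, yet the log2 fold change of −0.21 ± 0.17 SE was close to its error (limma adjusted p = 0.58). Limma voom gave the same size with a smaller error (−0.21 ± 0.107 SE, voom adjusted p = 0.36). *mt-Nd2* (MT 3914 to 4951) was at 1734, 2087 and 1765 FPKM in Ctrl and at 1587, 1435 and 1247 FPKM in cKO, a log2 fold change of −0.39 ± 0.155 SE (adjusted p = 0.296). *mt-Nd4* (MT 10167 to 11544) was at 1319, 1691 and 1370 FPKM in Ctrl and at 1304, 1201 and 1076 FPKM in cKO (log2 fold change −0.29 ± 0.153 SE, adjusted p = 0.414). In *mt-Nd2* and *mt-Nd4* too, each cKO sample was below each Ctrl sample, and Ctrl 2 was the highest sample. Voom errors were smaller for these 2 as well, with −0.39 ± 0.121 SE (voom adjusted p = 0.146) and −0.29 ± 0.123 SE (voom adjusted p = 0.275).

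*mt-Nd5* (MT 11742 to 13565), another core subunit of complex I, ranged from 1358 to 1670 FPKM in Ctrl and from 1277 to 1490 FPKM in cKO, with overlap between groups (log2 fold change −0.16 ± 0.143 SE). *mt-Nd6* (MT 13552 to 14070) is the only coding gene on the minus strand. It was at 1396, 1976 and 1867 FPKM in Ctrl 1 to 3 and at 1440, 1390 and 2297 FPKM in cKO 1 to 3, so cKO 3 was the highest of all samples and the other cKO samples were near Ctrl 1. The ratio of *mt-Nd6* to *mt-Nd5* FPKM was 1.03, 1.18 and 1.21 in Ctrl and 0.967, 1.06 and 1.80 in cKO. Against the plus-strand coding genes, the log2 ratio of *mt-Nd6* reads was 0.17 higher in cKO (exact p = 0.8), and the difference was −0.15 without cKO 3. The sources used here do not say whether strand was used in counting, so reads of *mt-Nd6* and plus-strand RNA across the same bases cannot be told apart.

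For complex III, the single mitochondrially encoded subunit is cytochrome b. *mt-Cytb* (MT 14145 to 15288) was at 3499, 4521 and 3641 FPKM in Ctrl 1 to 3 and at 3151, 2835 and 2706 FPKM in cKO 1 to 3. The groups did not overlap. Among the 7 coding genes at 1076 FPKM or more, its log2 fold change of −0.42 ± 0.175 SE was the most negative (unadjusted p = 0.0475, limma adjusted p = 0.31). Voom gave −0.42 ± 0.122 SE for this gene (voom adjusted p = 0.127). For complex IV, cytochrome c oxidase, *mt-Co1* (MT 5328 to 6872) encodes the catalytic core and was the highest member, with the second rank by mean FPKM in the table. It stood at 7776, 8828 and 7686 FPKM in Ctrl and at 7706, 8002 and 6117 FPKM in cKO, with overlapping groups (log2 fold change −0.16 ± 0.209 SE, adjusted p = 0.739, with −0.041 without cKO 3 and −0.097 without Ctrl 2).

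The remaining subunits of complex IV, those of ATP synthase and 2 of complex I stood far lower, and all of them lie inside the stretch copied on chromosome 1. *mt-Co2* (MT 7013 to 7696) was at 168, 131 and 163 FPKM in Ctrl 1 to 3 and at 169, 215 and 162 FPKM in cKO 1 to 3. *mt-Co3* (MT 8607 to 9390) was at 58.4, 77.2 and 58.1 FPKM in Ctrl and at 129, 78.4 and 62.6 FPKM in cKO. Both overlapped between groups (log2 fold changes 0.24 ± 0.148 SE and 0.42 ± 0.259 SE), and the high cKO mean of *mt-Co3* came from cKO 1.

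*mt-Atp6* (MT 7927 to 8607), which encodes a subunit of the proton channel of ATP synthase, was at 38.7, 106 and 131 FPKM in Ctrl and at 50.5, 76.1 and 45.3 FPKM in cKO. *mt-Atp8* (MT 7766 to 7969), which overlaps *mt-Atp6* by 43 bases, had only 3, 3 and 13 reads in Ctrl and 3, 4 and 7 in cKO. In both, the range of Ctrl covered all cKO samples. *mt-Nd3* (MT 9459 to 9806) was at 3.73, 9.36 and 8.14 FPKM in Ctrl and at 4.75, 8.26 and 7.25 FPKM in cKO (log2 fold change −0.0091 ± 0.313 SE), far below *mt-Nd1* in every sample.

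The widest scatter within a group belonged to *mt-Nd4l* (MT 9877 to 10173), which overlaps *mt-Nd4* by 7 bases. It was at 7.70, 96.7 and 31.3 FPKM in Ctrl 1 to 3, from 37, 547 and 154 reads, and at 13.3, 13.9 and 8.72 FPKM in cKO 1 to 3, from 62, 69 and 40 reads. Ctrl 1 was below every cKO sample and Ctrl 2 was 12.6 times Ctrl 1. The log2 fold change of −1.24 ± 0.769 SE (limma adjusted p = 0.471) was the most negative of the coding genes, and it was −0.39 without Ctrl 2.

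How much of each gene is also found in annotated nuclear transcripts was measured by searching every 50-base stretch of the gene in all GENCODE transcripts of nuclear genes. The share was 100% in *mt-Co2*, 99.9% in *mt-Co3*, 99.5% in *mt-Atp6*, 98.8% in *mt-Nd4l* and 98.0% in *mt-Nd3*. It was 62.2% in *mt-Nd4* and 51.1% in *mt-Co1*, which lie partly in the copied stretch, and 8.19% in *mt-Nd2*, 7.61% in *mt-Nd5* and 1.04% in *mt-Rnr2*. Of the 1496 stretches of *mt-Co1*, 430 were found in *Gm29216* on chromosome 1 and 411 in *Gm13340* on chromosome 2. The share was 0% in *mt-Nd1*, *mt-Nd6*, *mt-Cytb* and *mt-Rnr1*. *mt-Atp8* also came to 0%, although it lies inside the copied stretch, because only annotated transcripts were searched, and the part of *mt-Atp8* that an annotated copy covers, its 43-base overlap with *mt-Atp6*, is shorter than 50 bases.

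The coding genes with nearly all of their sequence in nuclear transcripts were also low in level. The 6 coding genes wholly inside the copied stretch stood between 0.772 and 215 FPKM in any sample, and the other 7 between 1076 and 8828 FPKM. *mt-Co1* and *mt-Nd4*, with part of their length shared, were among the high genes. Together the 6 genes took 0.0236% ± 0.00381 of reads in Ctrl and 0.0241% ± 0.00426 in cKO (SD, n = 3 each, exact p = 0.5), while the 5 genes with little or no shared sequence named above took 1.46% ± 0.165 and 1.20% ± 0.081 (exact p = 0.1, no overlap), a difference of −0.26 percentage points that was −0.16 without Ctrl 2. How the authors' counting treated a read that matches a mitochondrial gene and its nuclear copy equally well was not given in the sources used here. The part of sequence sharing in the low levels was not tested.

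**Figure D3:**
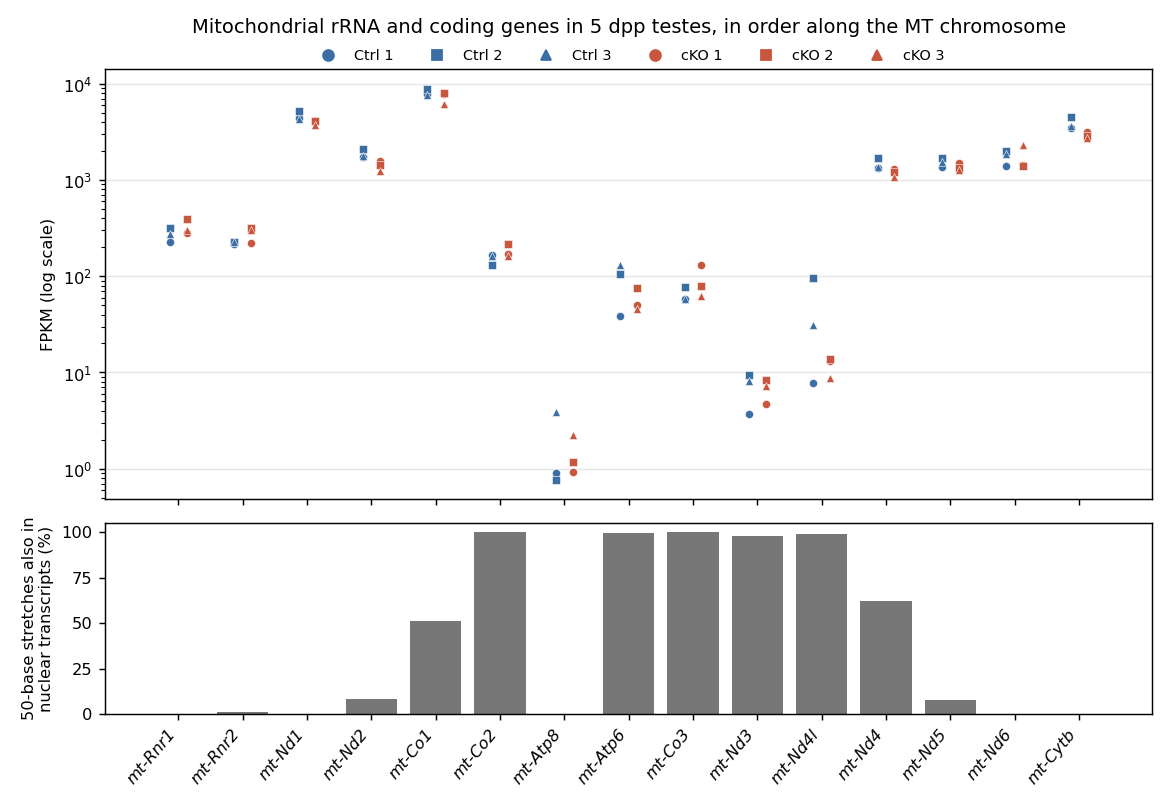
Upper panel, FPKM (log axis) of the 2 rRNA and 13 coding members in each sample, in their order along the MT chromosome, with Ctrl in blue, cKO in red and symbols for replicates 1 to 3; lower panel, percent of 50-base stretches of each gene that also occur in annotated nuclear transcripts. From *mt-Co2* to *mt-Nd4l* all levels lie at or below 215 FPKM, and the other coding genes lie at 1076 FPKM or more.

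The nuclear copies themselves were listed at levels that in part exceeded those of their mitochondrial counterparts. *Gm28438* ranged from 52.2 to 71.0 FPKM over the 6 samples, above *mt-Nd3* in each of them. *Gm28661* ranged from 121 to 178 FPKM, close to *mt-Co2*. *Gm10925* (43.0 to 80.1 FPKM) lay in the range of *mt-Atp6*, *Gm28437* (40.4 to 54.6 FPKM) below *mt-Co3* in each sample, and *Gm10222* (10.3 to 24.1 FPKM) in the range of *mt-Nd4l*. The copies at the ends of the tract, *Gm29216* (35.5 to 60.1 FPKM, a copy of the last part of *mt-Co1*) and *Gm28439* (8.05 to 17.6 FPKM, a copy of the first 876 bases of *mt-Nd4*), were far below their counterparts.

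None of the 7 copies separated the groups, and together they took 0.0237% ± 0.00347 of reads in Ctrl and 0.0248% ± 0.00294 in cKO (SD, n = 3 each, exact p = 0.7). Copies of mitochondrial genes on chromosome 2 were scarcer. *Gm13340* (3.33 to 4.88 FPKM) and *Gm13341* (1.07 to 4.26 FPKM) overlapped between groups. *Gm13339*, a copy of part of *mt-Nd2*, had 13, 23 and 16 reads in Ctrl and 12, 12 and 10 in cKO, and its FPKM were lower in cKO without overlap (log2 fold change −0.29, limma adjusted p = 0.34).

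**Figure D4:**
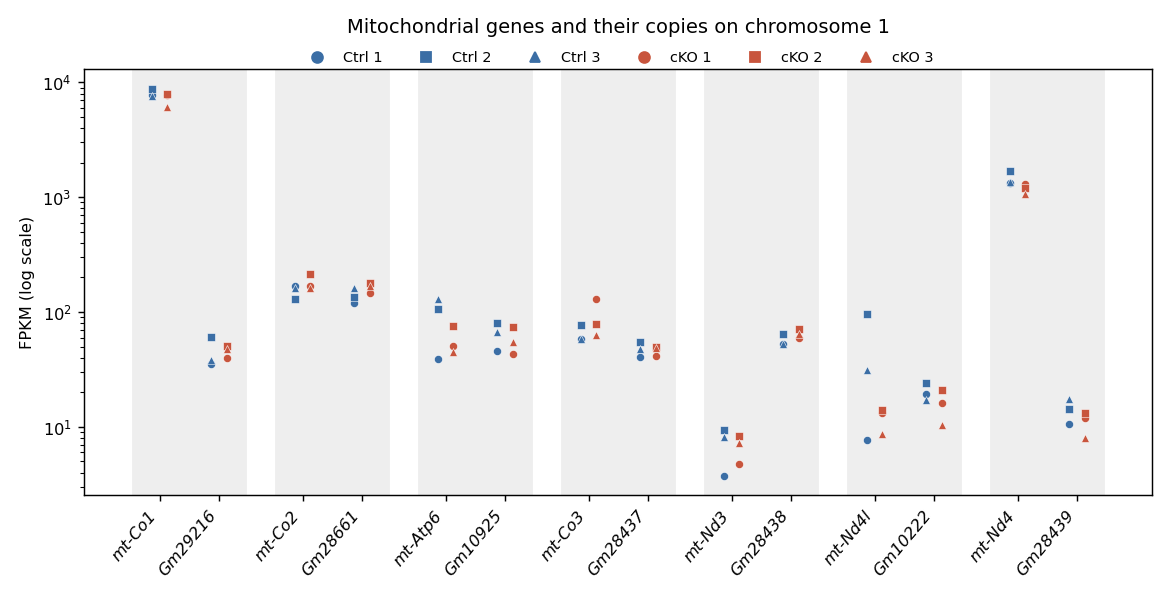
FPKM (log axis) of 7 mitochondrial coding genes, each beside its annotated copy on chromosome 1 in a grey band, in every sample, with Ctrl in blue, cKO in red and symbols for replicates 1 to 3. *Gm28438* lies above *mt-Nd3* in all 6 samples, *Gm28661* lies close to *mt-Co2*, and *Gm29216* and *Gm28439* lie far below *mt-Co1* and *mt-Nd4*.

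The rRNA genes encode the RNAs of the small and the large subunit of the mitochondrial ribosome. *mt-Rnr1* (12S, MT 70 to 1024) was at 226, 320 and 273 FPKM in Ctrl 1 to 3 and at 281, 393 and 301 FPKM in cKO 1 to 3 (log2 fold change 0.25 ± 0.175 SE, limma adjusted p = 0.516). *mt-Rnr2* (16S, MT 1094 to 2675) was at 214, 228 and 224 FPKM in Ctrl, a narrow range, and at 220, 313 and 299 FPKM in cKO (log2 fold change 0.30 ± 0.145 SE, adjusted p = 0.365). Voom gave 0.30 ± 0.134 SE for *mt-Rnr2* (voom adjusted p = 0.285). In *mt-Rnr2*, cKO 2 and cKO 3 were above all Ctrl samples and cKO 1 was among them. Both rRNA genes stood well below *mt-Nd1*, on the same per-length scale, in these poly(A)-selected libraries. The log2 fold change of *mt-Rnr1* was 0.11 without cKO 2 and 0.12 without Ctrl 1.

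For the tRNA genes, read support decides how much can be said. The genes are 59 to 75 bases long, and a single read in a gene of 70 bases corresponds to 0.750 to 0.925 FPKM, depending on the sample. Of the 22, 10 had a mean of at least 10 reads, and 12 did not. Among the 12, 4 (*mt-Tf*, *mt-Td*, *mt-Tk*, *mt-Tg*) were at 0 in all samples, which by counting error allows up to 3 reads a sample, and the other 8 had at most 8 reads in any sample. *mt-Ta* (alanine) shows what this means: its non-overlapping FPKM rest on 4, 8 and 4 reads in Ctrl and 2, 0 and 3 in cKO. *mt-Tm* (methionine), under the filter, had 0 reads in each Ctrl sample and 1 in each cKO sample.

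*mt-Tn*, *mt-Tc* and *mt-Tp* had by far the most reads, between 249 and 557 in any sample, whereas no other tRNA gene exceeded 106. For *mt-Tn*, the Ctrl samples were at 305, 412 and 318 FPKM, with cKO samples at 320, 401 and 325. *mt-Tc* had 337, 330 and 338 FPKM in Ctrl against 348, 394 and 331 in cKO. *mt-Tp* was at 288, 389 and 300 FPKM in Ctrl and at 263, 300 and 241 FPKM in cKO. The groups overlapped in all 3, with log2 fold changes of 0.022 ± 0.154 SE, 0.089 ± 0.103 SE and −0.27 ± 0.148 SE. These genes are also set apart by position. *mt-Tn* and *mt-Tc* are separated by 32 bases, in which the origin of light-strand replication is known to lie, and *mt-Tp* is the last annotated gene before the noncoding control region. The other 18 tRNA genes with an annotated neighbour on both sides have at most 5 unannotated bases on either side, and *mt-Tf*, at the other end of the control region, had 0 reads.

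**Figure D5:**
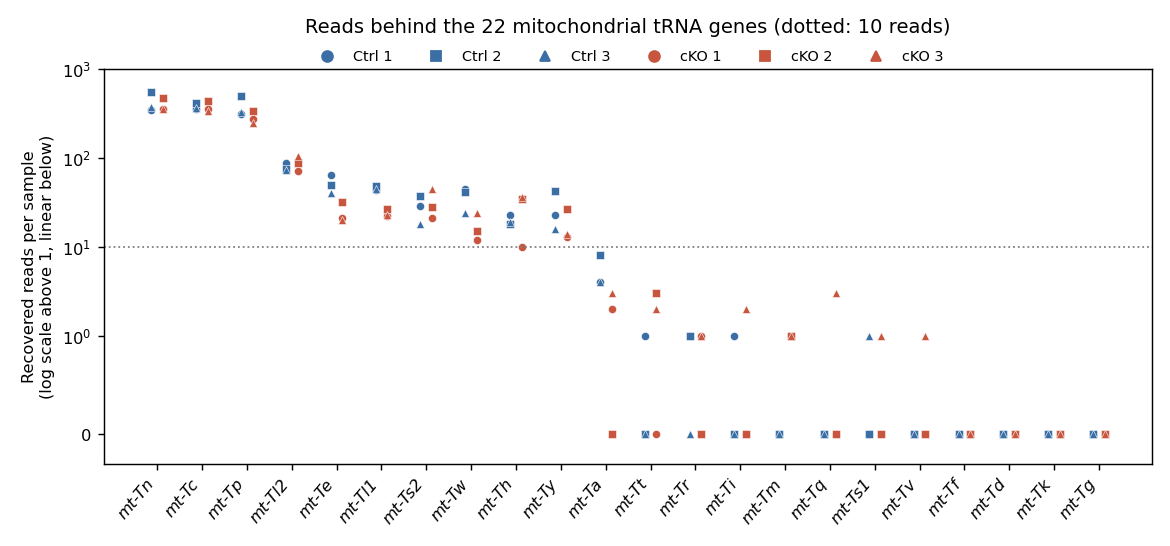
Recovered reads per sample (y axis, log scale above 1 and linear below) for the 22 mitochondrial tRNA genes, ordered by mean reads, with Ctrl in blue, cKO in red, symbols for replicates 1 to 3 and a dotted line at 10 reads. *mt-Tn*, *mt-Tc* and *mt-Tp* lie at 249 to 557 reads, 7 genes lie mostly between 10 and 106, and 12 genes have 8 reads or fewer.

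Of the 7 remaining tRNA genes with a mean of at least 10 reads, *mt-Tl1*, which lies directly between *mt-Rnr2* and *mt-Nd1*, had the lowest p of all members. It had 44, 48 and 45 reads in Ctrl 1 to 3 and 22, 27 and 23 reads in cKO 1 to 3, or 36.2, 33.6 and 36.2 FPKM against 18.6, 21.6 and 19.9 FPKM. The cKO mean was 56.6% of the Ctrl mean, a log2 fold change of −0.79 ± 0.085 SE (unadjusted p = 2.82e-05, limma adjusted p = 0.058). Voom, which takes the counting error of such low reads into account, gave the same size with a larger error (−0.80 ± 0.28 SE, adjusted p = 0.186). Of its neighbours, *mt-Rnr2* went the other way, at 0.30 on the log2 scale, and *mt-Nd1* was also lower in cKO but by less, at −0.21.

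*mt-Te*, between *mt-Nd6* and *mt-Cytb*, had 65, 50 and 40 reads in Ctrl and 21, 32 and 20 reads in cKO, or 50.2% of the Ctrl mean in FPKM (log2 fold change −0.95 ± 0.221 SE, limma adjusted p = 0.139, voom adjusted p = 0.19). *mt-Tw* (tryptophan), next to *mt-Nd2*, had 45, 41 and 24 reads in Ctrl and 12, 15 and 24 reads in cKO (log2 fold change −0.96 ± 0.302 SE, adjusted p = 0.213). The groups were separate in *mt-Te* and met in *mt-Tw*, where cKO 3 and Ctrl 3 had the same number of reads. *mt-Ty* (tyrosine) had 13 to 42 reads and overlapped (log2 fold change −0.42 ± 0.332 SE).

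*mt-Th* (histidine), *mt-Ts2* (serine) and *mt-Tl2* (leucine) lie side by side between *mt-Nd4* and *mt-Nd5*. *mt-Th* had 23, 18 and 19 reads in Ctrl and 10, 35 and 36 reads in cKO. *mt-Ts2* had 29, 37 and 18 reads against 21, 28 and 45. *mt-Tl2* had 87, 76 and 73 reads against 72, 88 and 106. All 3 overlapped between groups, with cKO 3 the highest sample in each, as in *mt-Nd6*. Their log2 fold changes were 0.33 ± 0.444 SE, 0.25 ± 0.314 SE and 0.27 ± 0.172 SE. Without cKO 3 these were 0.012, −0.057 and 0.11, and without cKO 1 that of *mt-Th* was 0.90. The reads are longer than the genes, so a read aligned over its full length also covers adjoining sequence. How counting treated a read that reaches a neighbouring gene was not given in the sources used here. What the counted reads cover is therefore not known, and mature tRNA cannot be told from precursor or partly cut RNA.

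By gene type, the median log2 fold change over the tested members was −0.16 for the 13 coding genes, 0.28 for the 2 rRNA genes and 0.022 for the 13 tRNA genes, and it was 0.0027 over all 16206 genes. Of the 13 coding genes, 11 had a fold change below 0, although quantile normalization set *mt-Co1* and *mt-Nd1* to 0 and turned *mt-Nd3* slightly positive (0.011).

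Nuclear genes that copy, transcribe and process mitochondrial DNA and RNA were examined as the other members of the pathway, in lists chosen with earlier results of these data known. Of 64 such genes in the table, 63 were tested and 0 passed the adjusted threshold. At an unadjusted p under 0.05, 2 were lower and 1 higher, and the groups did not overlap in 7 lower and 1 higher, all of them smaller shares than those of all genes given above. The median log2 fold change was −0.087.

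The genes of mitochondrial transcription gave small differences. *Polrmt*, the mitochondrial RNA polymerase, was at 7.05 ± 0.0969 FPKM in Ctrl and at 7.20 ± 0.0762 FPKM in cKO (SD, n = 3). *Tfam*, which packages mitochondrial DNA and starts transcription, was at 16.4 ± 1.94 and 16.2 ± 1.17 FPKM. Their log2 fold changes were 0.028 ± 0.0756 SE and −0.012 ± 0.106 SE. *Mterf1b*, a gene of the transcription termination factor family, was at 2.55 ± 0.553 and 3.08 ± 0.618 FPKM, and *Esrra*, a nuclear receptor that acts on genes of energy metabolism, at 7.20 ± 0.816 and 8.38 ± 1.01 FPKM, with overlapping groups in both.

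Among genes of RNA processing, *Elac2*, the nuclease that cuts the 3′ end of tRNAs from their precursors in mitochondria and in the nucleus, was at 12.1, 14.6 and 11.9 FPKM in Ctrl 1 to 3 and at 7.96, 8.98 and 9.69 FPKM in cKO 1 to 3. No cKO sample reached the Ctrl range (log2 fold change −0.49 ± 0.112 SE, limma adjusted p = 0.136, voom adjusted p = 0.073). *Rexo2*, an exonuclease that clears short RNA, was at 14.7, 15.7 and 16.4 FPKM in Ctrl and at 12.7, 10.2 and 14.3 FPKM in cKO (log2 fold change −0.32 ± 0.125 SE, adjusted p = 0.29). *Nsun3*, a methyltransferase of the mitochondrial methionine tRNA, was at 2.36, 2.70 and 2.17 FPKM in Ctrl and at 2.10, 1.92 and 1.44 FPKM in cKO (−0.28 ± 0.132 SE, adjusted p = 0.358). In both of these the groups were also separate, by narrow margins.

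*Trmu*, which thiolates mitochondrial tRNAs, was the gene with the lowest p among the higher ones, at 5.32, 4.30 and 5.43 FPKM in Ctrl and at 6.48, 6.43 and 5.93 FPKM in cKO (log2 fold change 0.28 ± 0.106 SE, limma adjusted p = 0.277). *Mtpap*, the mitochondrial poly(A) polymerase, was at 13.2 ± 1.22 FPKM in Ctrl and at 13.4 ± 0.786 FPKM in cKO (SD, n = 3; 0.028 ± 0.0952 SE). *Lrpprc*, which stabilizes mitochondrial mRNAs, was at 11.7 ± 1.02 and 9.94 ± 1.57 FPKM (−0.22 ± 0.122 SE). The groups overlapped in *Mtpap* and *Lrpprc*.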

How the data were processed

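The authors aligned 150-base paired-end reads with HISAT2 2.0.5, counted reads per gene with featureCounts and deposited 1 table of FPKM values for 6 samples, scaled to gene length and library size. Counting options and the strand setting were not given in the sources used here. Samples were grouped by their titles. After multiplication by gene length, 100% of the FPKM values fell within 0.01 of whole multiples of what a single read is worth in that sample, so reads were recovered, and the deposited scaling matched median-of-ratios factors. Log2(FPKM + 1) values, a scale that understates changes of low genes, were tested with limma 3.58.1 (R 4.3.3), leaving out genes whose mean was under 0.5 FPKM, with a mean-variance trend, two-sided p-values and Benjamini-Hochberg adjustment over all genes at 0.05. The planned test was thus on log2 values, and limma voom on recovered reads was an alternative. Shares and log2 ratios were compared by exact two-sided permutation. Wilson intervals and floors of 3 reads cover counting error only. Scripts were tested on simulated data.

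Sequences came from GENCODE mouse release 21 (GRCm38), in which 37 of 37 members had the table's coordinates. No genome sequence was used here. The named genes were every coding and rRNA member, tRNA members with a mean of at least 10 reads, nuclear copies with a mean of at least 1 FPKM, and, of the nuclear lists, *Tfam*, *Polrmt*, *Lrpprc* and *Mtpap* with the 3 lowest p-values in each direction. Other tRNA genes named (*mt-Ta*, *mt-Tm* and those at 0) were chosen after their values were seen. Members and lists were chosen with earlier results of these data known. Alternatives were a pseudocount of 0.1, other filters and scalings, a fit to protein-coding genes alone, blocking by replicate number, no trend, and each sample left out.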

Additional observations from a re-analysis of the deposited data

How the results depend on the processing

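Over all alternatives run for the tests across genes, 0 mitochondrially encoded genes passed the adjusted threshold, with the exception of the replicate block, under which 1 gene, *mt-Tl1*, was lower (log2 fold change −0.79, limma adjusted p = 0.04997). Same-numbered samples of the 2 groups deviated together only weakly (correlations 0.066, 0.016 and 0.088, against −0.095 to 0.041 for differently numbered samples). These values cannot exclude a pairing, and whether the numbers pair the samples was not given in the sources used here. The log2 fold change of *Srsf1* passed the threshold under the replicate block (−0.85, adjusted p = 0.0326), with protein-coding genes only (−0.85, 0.016), with voom (−0.86, 0.0255) and with TPM (−0.86, 0.0362). Over all genes, 0 were called, against 84 lower and 14 higher under the block, 176 and 37 among protein-coding genes only, 61 and 22 with voom, 1 and 4 with TPM, 0 and 1 with no trend, 15 and 3 without Ctrl 2 and 2 and 3 without Ctrl 3. Quantile normalization turned *mt-Nd3* to 0.011, *mt-Tn* to −0.028 and *Tfam* to 0.00013 (log2), all near 0 to begin with. Leaving out each sample in turn changed the sign of *mt-Tn* (−0.082 to 0.16), *mt-Atp8* (−0.35 to 0.37), *mt-Nd3* (−0.36 to 0.21), *mt-Tr* (−0.24 to 0.37), *mt-Ts2* (−0.057 to 0.49), *mt-Nd6* (−0.29 to 0.075), *Mtpap* (−0.044 to 0.077), *Tfam* (−0.084 to 0.073) and the log2 ratio of *mt-Nd6* to the plus-strand coding genes (−0.15 to 0.34). The log2 ratio of rRNA to coding reads ranged from 0.41 to 0.68 and the difference in mitochondrial share from −0.51 to −0.24 percentage points. The comparison restricted to the 5 coding genes with little shared sequence was added after the data were seen. With 3 samples a group, an exact p below 0.1 cannot be reached, and the values of tRNA genes under 10 reads turn on a few reads.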
